A study of Homo sapiens with 12 samples.

Results

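The genes described here are p53 target genes, with regulators of p53 among them. They were chosen by gene symbol from a list of 49 names. Of these, 40 were among the 8842 genes listed for every library. The other 9 (BAX, CHEK2, CMBL, FAS, GADD45A, GDF15, MCL1, PIDD1 and TP53BP1) were not analysed here. The 40 members fall into 6 roles, with 5 in feedback and upstream control, 8 in cell cycle arrest and growth control, 6 among ligands and receptors, 11 among mitochondrial and other apoptosis genes, 4 in DNA repair and 6 in metabolism, redox and autophagy.

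The transcription factor p53 is kept scarce by the ubiquitin ligase MDM2 and its partner MDM4. DNA damage and other stresses free p53 through kinases such as ATM, and p53 then switches on genes for cell cycle arrest, DNA repair, altered metabolism and cell death, as well as MDM2 itself, which closes a feedback loop.

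RNA-seq was performed on the liver cancer cell lines HepG2 and LM3, harvested 48 h after transfection with an siRNA against the long noncoding RNA FASRL (siFASRL) or with a negative control siRNA (siNC). Each of the 4 groups had 3 replicates, which made 12 libraries, and the study asked how FASRL acts in lipid metabolism of hepatocellular carcinoma. The paper states that work on cell lines was repeated 3 or more times, with representative data shown. It does not say that the replicates sequenced here came from separate cultures. The p-values thus measure the spread between these samples, which may be technical. FASRL itself was not analysed here, so the knockdown could not be checked in these values, and the labels do not say which siRNA sequence was used. The paper states that knockdown efficiency was verified in HepG2 and LM3 as part of its RNA-seq work. In bulk samples, fewer cells expressing a gene and less RNA per cell cannot be told apart.

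The values are the authors' normalized RSEM estimates with 2 decimals, and since they are not counts, the depth of each library is unknown. The sum over the listed genes was 347211, 355094 and 350069 for HepG2 cells given siFASRL, and 333193, 334088 and 338379 for those given siNC. For LM3 it was 346884, 348573 and 347042 after siFASRL, but 316534, 320399 and 321859 after siNC. Replicates correlated across genes with Pearson's r from 0.9954 to 0.9989, genes not being independent replicates. LM3 siNC replicate 1 had r of 0.9954 and 0.9958 to the other LM3 siNC libraries, which had 0.9988 between them, and the lowest r among HepG2 replicates was 0.9958. How the 8842 genes were picked is not given in the sources used here. In HepG2 a log2 ratio from -0.20 to -0.04 was found for 5 of 6367 genes whose mean was 5 or more (0.0785%). The LM3 figure was 578 of 5937 (9.74%), so all shares given here refer to a list that lacks small falls in HepG2.

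The labels were checked against marker genes. Of 14 hepatocyte markers 12 were listed, and their summed value was 4955.83, 4892.34 and 4481.34 in HepG2 siNC and 2598.86, 2613.89 and 2661.54 in HepG2 siFASRL, with SERPINA1 the most abundant. APOA2 did not share in the lower sum, at 638.63, 681.77 and 568.68 with siNC and 681.19, 799.74 and 790.53 with siFASRL. In the libraries labelled LM3 the same sum was only 15.5, 20.14 and 18.23 with siNC and 8.07, 8.07 and 6.84 with siFASRL. There the leading gene was HNF4A, and TTR, ALB, AFP and APOA1 were at or near 0, so the LM3 libraries lack the defining secreted hepatocyte products. Of 7 fibroblast markers 5 were listed, with sums of 70.63, 70.91 and 72.23 in HepG2 siNC against 35.35, 32.32 and 33.3 in HepG2 siFASRL, led by COL3A1 and COL1A1. In LM3 the fibroblast sums were 15.13, 14.32 and 13.17 with siNC and 4.69, 5.86 and 5.25 with siFASRL, led by COL1A1, with DCN, LUM and COL3A1 at or near 0. Of 5 leukocyte markers only LYZ was listed, at 84.49, 86.37 and 77.17 in HepG2 siNC, 42.69, 45.81 and 49.89 in HepG2 siFASRL, and at most 1.73 in LM3. Of 5 endothelial markers only VWF was listed, at no more than 0.35 in any library. The part of these marker shifts in the results on p53 targets was not tested.

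The comparison of siFASRL with siNC asks whether knockdown moves the p53 targets, and whether it does so alike in both lines. Fold changes are on the log2(value + 1) scale, which makes changes of genes with low values look smaller, and limma was run on genes that reached 1 in 3 or more libraries of a fit. In HepG2 all 40 members could be tested, and 15 (37.5%) fell and 21 (52.5%) rose at an adjusted p under 0.05. Over all 8144 genes tested in HepG2, 44.3% fell and 44.8% rose. The median log2 fold change in HepG2 was 0.24 over members and 0.10 over all genes tested. In LM3 37 members could be tested, and 17 (45.9%) fell and 11 (29.7%) rose, against 43.5% and 33.9% of all 7483 genes. The LM3 median was -0.08 over members and -0.06 over all genes tested. The counts in each line thus stayed close to those of all listed genes, and a fall of the p53 targets as a whole beyond that of other genes was not seen in LM3. Scaling the libraries by median of ratios moved the median of all genes in LM3 by 0.109, and the LM3 member median then became 0.03. Of all genes called in LM3, 43.8% were higher before that scaling and 53.3% after it, and member calls went from 17 falls and 11 rises to 17 and 14.

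With a pseudocount of 1 no member passed a log2 fold change of 1 in both lines, though some lay near it. SESN1 was at -1.33 in HepG2 and -0.98 in LM3, ZMAT3 at -1.29 and -0.83, and CCNG1 at -0.94 and -1.26. With a pseudocount of 0.1, SESN1 and ZMAT3 passed it in both lines. A share of all genes past it in both lines is not given here. A log2 fold change of at least 1 in size with an adjusted p under 0.05 was reached in HepG2 by SESN1 and ZMAT3 on the lower side, 2 of 40 members against 6.79% of all genes. On the higher side BTG2, PERP, PMAIP1 and PLK2 reached it in HepG2, 4 of 40 members against 3.61% of all genes, and BCL2L1 joined them without HepG2 siFASRL replicate 2. In LM3 CDKN1A and CCNG1 passed it on the lower side, 5.41% of members against 6.2%, and no member passed it on the higher side, against 1.42% of all genes. That count was 0 by limma at an unadjusted p under 0.05 too, and PERP had the largest rise in LM3. With a pseudocount of 0.1 in place of 1, 7 members passed the lower threshold in LM3, SESN1, ZMAT3, FDXR, APAF1 and KITLG being added. Without LM3 siNC replicate 1 the LM3 count was 4, with SESN1 and FDXR added, and it was 3, with FDXR added, without siFASRL replicate 1, siFASRL replicate 3 or siNC replicate 3.

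**Figure D1:**
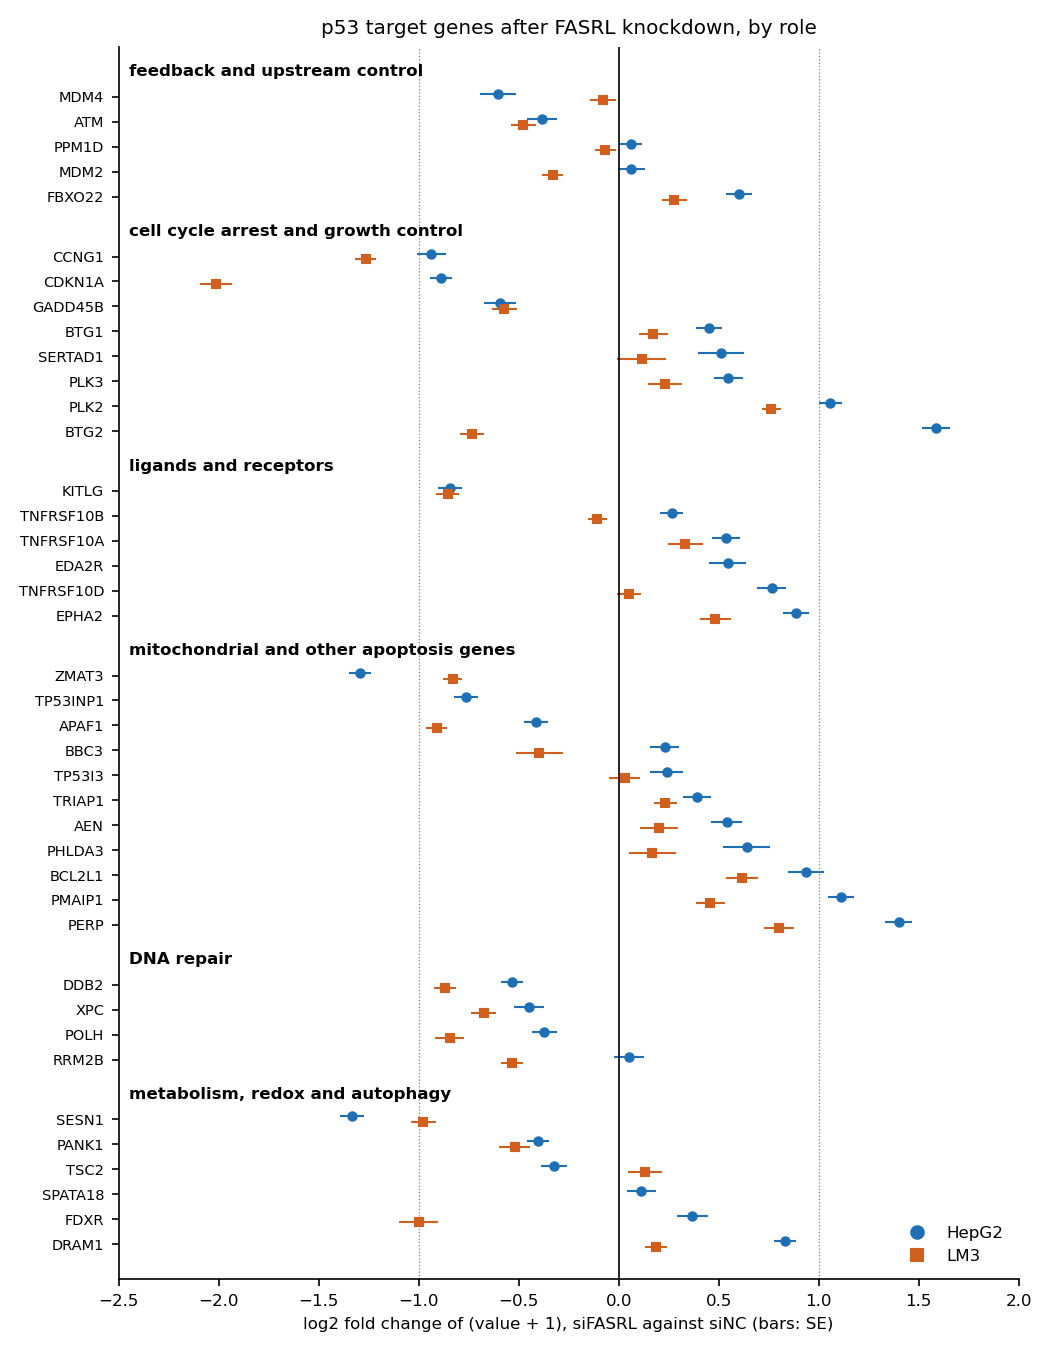
Each row is a member, ordered by role, with its log2 fold change of siFASRL against siNC in HepG2 (blue circles) and LM3 (orange squares); bars are limma standard errors and dotted lines mark a change of 1. BTG2 lies at 1.59 in HepG2 and -0.73 in LM3, CDKN1A at -0.89 and -2.01, and the 3 members not tested in LM3 have no square.

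Member by member, over the 37 tested in both lines, 12 fell in both and 11 rose in both, which is 32.4% and 29.7% against 36.0% and 29.6% of the 7349 genes tested in both. Those that fell in both were APAF1, ATM, CCNG1, CDKN1A, DDB2, GADD45B, KITLG, PANK1, POLH, SESN1, XPC and ZMAT3. Those that rose in both were BCL2L1, BTG1, DRAM1, EPHA2, FBXO22, PERP, PLK2, PLK3, PMAIP1, TNFRSF10A and TRIAP1. A further 3 members, BBC3, BTG2 and FDXR, rose in HepG2 and fell in LM3, 8.11% against 4.68% of all genes. No member fell in HepG2 and rose in LM3 by limma, nor at an unadjusted p under 0.05, though TSC2, which fell in HepG2, was called higher in LM3 with median-of-ratios scaling (limma adjusted p = 0.0252) and without LM3 siNC replicate 3 (0.0392). Only PPM1D passed the test in neither line. No share of all genes is given here for either of these last patterns, so neither count can be called particular to the members.

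Promoters of members were read from RefSeq on GRCh38.p14, 250 bases before to 50 after the annotated start of a transcript, because direct p53 targets are defined by p53 bound to their DNA. The table held 33 of the 40 members, and for BBC3, CDKN1A and ZMAT3, among others, the transcript start it uses lies inside the gene span given here. The p53 consensus decamer was searched with its central 4 bases intact and at most 1 mismatch elsewhere, and since it reads the same on both strands, 1 pass covers both. It was found in 14 of 33 member promoters (42.4%), against 28.2% of the 7111 promoters of listed genes and 32.7% of all 27305 promoters in the table. An exact decamer was found in 3 member promoters (9.09%), those of AEN, FDXR and PLK2, against 5.43% of listed genes and 6.54% of all. No member window held a pair of decamers up to 13 bases apart, against 0.633% of listed genes and 0.89% of all. A match is a description of these letters only, and no match in CDKN1A, BTG2, SESN1 or ZMAT3 says nothing of p53 sites elsewhere in those genes. The stretches below show 30 bases around a match upstream of that transcript start in PLK2, which rose in both lines, BBC3, which moved in opposite directions, DDB2 and KITLG, which fell in both, and TSC2, which fell in HepG2, with the decamer in capitals. They lie at chr5:58460199-58460228 (minus strand), chr19:47232821-47232850 (minus strand), chr11:47214319-47214348 (plus strand), chr12:88580633-88580662 (minus strand) and chr16:2047919-2047948 (plus strand).
PLK2: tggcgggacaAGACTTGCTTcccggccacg
BBC3: acttggaggcAGTCAAGTTTgagaagtctg
DDB2: cttaggaaagGCACTAGCTCtctacaaagc
KITLG: ccaggcgagcGGACAAGGTTggcctaatct
TSC2: ctacaactccCAGCAAGCTCccaaggcggc

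The counts given for each role are of 4 to 11 genes, and of all genes tested 44.3% fell and 44.8% rose in HepG2, and 43.5% and 33.9% in LM3. The feedback genes changed by less than 1 on the log2 scale in both lines. MDM2, the ligase that marks p53 for destruction (chromosome 12, 68808172 to 68850686), had values of 21.14, 19.34 and 21.14 with siFASRL and 20.64, 19.99 and 18.21 with siNC in HepG2. In LM3 its values were 8.27, 7.75 and 8.1 with siFASRL and 10.5, 9.97 and 10.62 with siNC. The MDM2 groups overlapped in HepG2, while in LM3 every siFASRL library lay below every siNC library. The log2 fold change of MDM2 in HepG2 was 0.06 (SE 0.066, limma adjusted p = 0.366). In LM3 MDM2 fell, with a log2 fold change of -0.33 (SE 0.051, limma adjusted p = 4.06e-04). The effect in LM3 minus that in HepG2 was -0.39 for MDM2 (limma adjusted p = 0.00141). MDM4, which blocks the activation domain of p53 (chromosome 1, 204516406 to 204558120), showed the other order, with HepG2 values of 4.26, 5.76 and 4.8 with siFASRL and 8.52, 7.91 and 7.56 with siNC. Its LM3 values were 7.55, 8.58 and 7.26 with siFASRL and 7.97, 8.39 and 8.45 with siNC. So MDM4 was lower in every HepG2 siFASRL library, and the LM3 groups overlapped. MDM4 fell in HepG2 with a log2 fold change of -0.61 (SE 0.09, limma adjusted p = 1.46e-04). The LM3 log2 fold change of MDM4 was -0.08 (SE 0.066, limma adjusted p = 0.299), and the lines differed by 0.53 (limma adjusted p = 0.00285).

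Of the 5 members in this role, 2 fell and 1 rose in each line. ATM, the kinase that signals DNA breaks to p53, fell from a mean of 7.9 to 5.84 in HepG2. ATM went from a mean of 5.73 to 3.84 in LM3, a log2 fold change of -0.48 there. FBXO22, a ubiquitin ligase subunit, rose by 0.60 in HepG2 and by 0.28 in LM3 on the log2 scale. PPM1D, the phosphatase that switches off ATM signalling, had means of 8.26 with siFASRL and 7.87 with siNC in HepG2, and 6.03 and 6.36 in LM3.

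The cell cycle arrest genes held the largest changes. CDKN1A encodes p21, the inhibitor of cyclin-dependent kinases that carries out p53-driven arrest (chromosome 6, 36676463 to 36687332), and its HepG2 values were 91.05, 84.65 and 85.02 with siFASRL and 165.08, 159.78 and 160.41 with siNC. In LM3 the values of CDKN1A were 2.37, 2.42 and 2.08 with siFASRL and 13.6, 12.39 and 10.95 with siNC. All siFASRL libraries lay below all siNC libraries in both lines, and the LM3 libraries lay far below those of HepG2. The ratio of the means was 0.537 in HepG2 and 0.186 in LM3, so that CDKN1A was 1.86-fold and 5.38-fold lower. CDKN1A fell in HepG2 with a log2 fold change of -0.89 (SE 0.056, limma adjusted p = 5.61e-07). It fell further in LM3, with a log2 fold change of -2.01 (SE 0.08, limma adjusted p = 3.63e-07) and a difference between the lines of -1.12 (limma adjusted p = 1.16e-06).

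BTG2, an antiproliferative partner of mRNA deadenylation (chromosome 1, 203305519 to 203309602), went in opposite directions. Its HepG2 values were 29.64, 29.42 and 31.18 with siFASRL and 10.06, 8.41 and 9.64 with siNC. In LM3 BTG2 had values of 8.17, 8.39 and 8.3 with siFASRL and 15.31, 14.84 and 13.27 with siNC. Every HepG2 siFASRL library was above, and every LM3 siFASRL library below, the siNC libraries of its line. BTG2 rose in HepG2 with a log2 fold change of 1.59 (SE 0.07, limma adjusted p = 8.91e-08). BTG2 fell in LM3 with a log2 fold change of -0.73 (SE 0.061, limma adjusted p = 1.02e-05). The difference of -2.32 (limma adjusted p = 2.22e-09) was the largest among the members.

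CCNG1, cyclin G1, which acts in the feedback on MDM2 (chromosome 5, 163437571 to 163457640), had HepG2 values of 39.96, 44.76 and 47.44 with siFASRL and 82.88, 89.13 and 83.1 with siNC. The LM3 values of CCNG1 were 19.15, 20.12 and 20.7 with siFASRL and 48.66, 48.83 and 50.67 with siNC. No library of one siRNA reached the range of the other in either line. CCNG1 fell with a log2 fold change of -0.94 in HepG2 (SE 0.072, limma adjusted p = 1.94e-06). In LM3 the log2 fold change of CCNG1 was -1.26 (SE 0.052, limma adjusted p = 3.69e-07), a difference of -0.33 (limma adjusted p = 0.00822). PLK2, a kinase of the stress response (chromosome 5, 58453982 to 58460086), rose instead, and its HepG2 values were 45.06, 49.35 and 48.47 with siFASRL and 22.2, 21.95 and 22.84 with siNC. For LM3 they were 19.03, 18.32 and 18.83 with siFASRL and 10.49, 10.67 and 10.69 with siNC. PLK2 was higher in every siFASRL library than in any siNC library of the same line. The log2 fold change of PLK2 was 1.06 in HepG2 (SE 0.057, limma adjusted p = 2.52e-07). It was 0.76 in LM3 (SE 0.047, limma adjusted p = 2.21e-06), a difference of -0.29 (limma adjusted p = 0.00258).

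In all, 3 of these 8 members fell and 5 rose in HepG2, and 4 fell and 3 rose in LM3. GADD45B, a stress-induced growth inhibitor, fell to nearly the same extent, with log2 values of -0.59 in HepG2 and -0.57 in LM3. PLK3, a kinase of the same family as PLK2, rose by 0.55 in HepG2 and 0.23 in LM3. BTG1, a relative of BTG2, rose by 0.45 and 0.17. The LM3 calls of both were lost without LM3 siFASRL replicate 1 or 3, or without siNC replicate 1 or 2. The limma adjusted p then reached 0.129 for PLK3, at a log2 value of 0.181, and 0.179 for BTG1, at 0.116. Both calls were also lost without the filter (limma adjusted p = 0.0694 and 0.0724), and that of BTG1 with a pseudocount of 0.1 (0.0563). The line differences of PLK3 and BTG1, at 0.0461 and 0.0309, were lost without most single libraries (up to 0.115 and 0.0827). They were also lost with median-of-ratios scaling (limma adjusted p = 0.094 and 0.0896), and that of PLK3 with a pseudocount of 0.1 (0.0595). SERTAD1, a cyclin-dependent kinase and E2F cofactor, rose in HepG2 with a log2 fold change of 0.51, while in LM3 its value of 0.12 did not pass the test, nor did the difference of -0.40 (limma adjusted p = 0.101), which was called without HepG2 siNC replicate 2 or LM3 siNC replicate 1 (0.0443 and 0.0154).

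**Figure D2:**
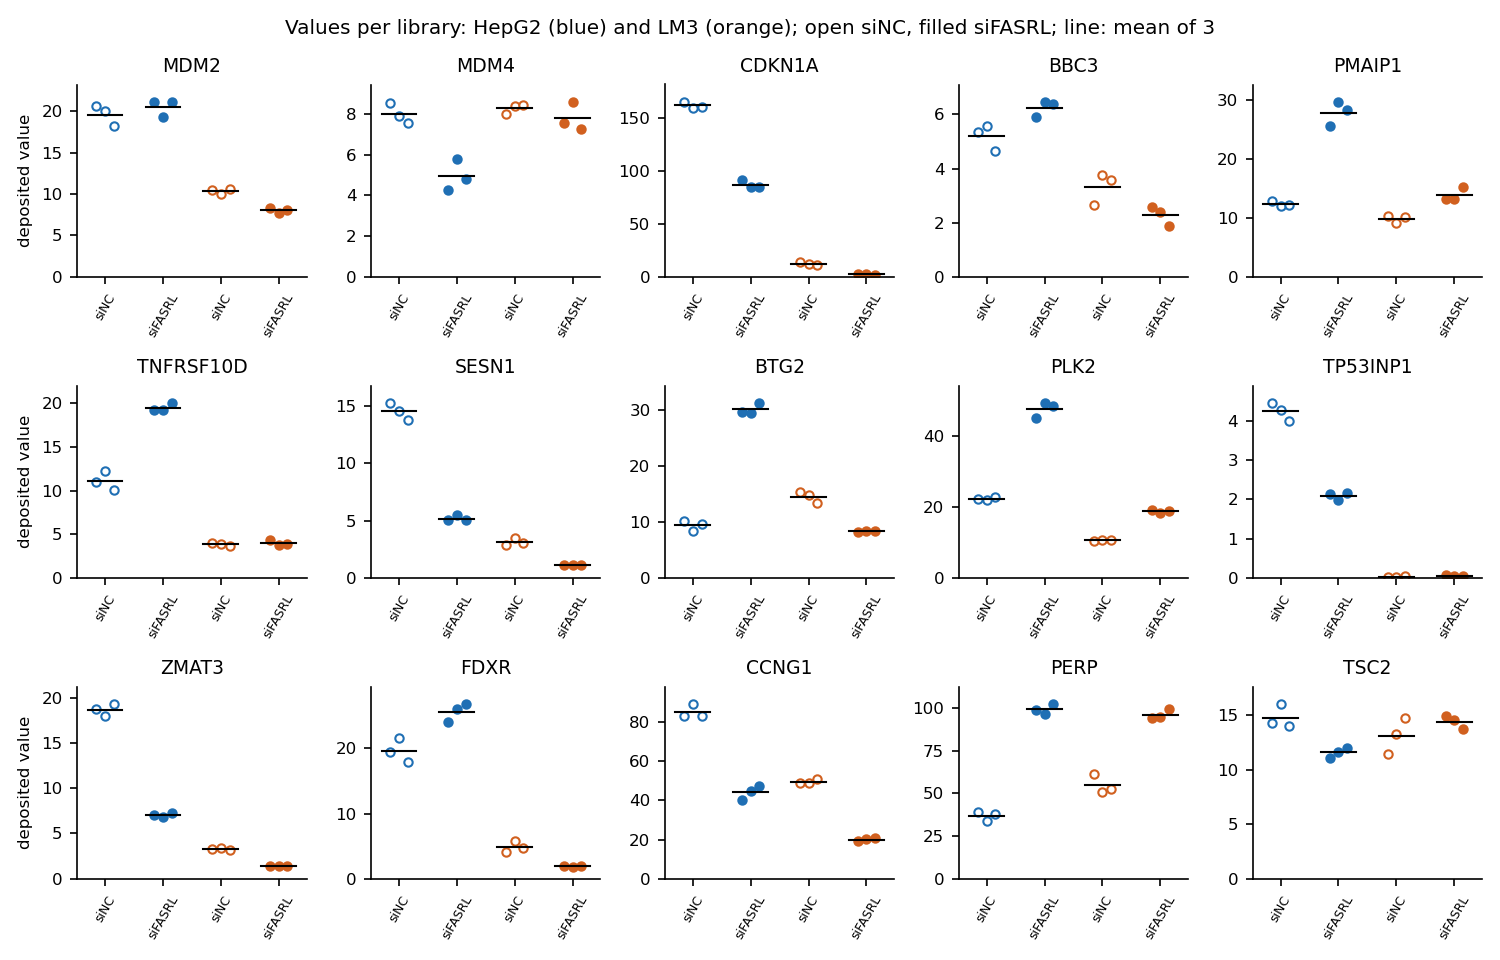
Deposited values of the 15 members described in full, 1 panel each on a linear axis from 0, with 3 siNC (open) and 3 siFASRL (filled) libraries per line, HepG2 in blue and LM3 in orange; lines are means. BTG2 and FDXR rise in HepG2 and fall in LM3, and CDKN1A and TP53INP1 are far lower in LM3 than in HepG2.

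Among ligands and receptors, 5 of 6 rose in HepG2 and KITLG fell, and of the 5 tested in LM3, 1 fell and 2 rose. TNFRSF10D, a decoy receptor for the death ligand TRAIL (chromosome 8, 23135588 to 23164027), had HepG2 values of 19.3, 19.23 and 20.05 with siFASRL and 10.98, 12.27 and 10.08 with siNC. In LM3 its values were 4.38, 3.81 and 3.93 with siFASRL and 4.03, 3.92 and 3.63 with siNC. TNFRSF10D was higher in all HepG2 siFASRL libraries, and the LM3 groups overlapped. TNFRSF10D rose in HepG2 with a log2 fold change of 0.77 (SE 0.071, limma adjusted p = 6.66e-06). Its LM3 log2 fold change was 0.05 (SE 0.062, limma adjusted p = 0.462), and the lines differed by -0.71 (limma adjusted p = 5.23e-05). The signalling TRAIL receptors gave smaller changes. TNFRSF10A rose by 0.54 in HepG2 and 0.33 in LM3 on the log2 scale. TNFRSF10B rose by 0.27 in HepG2 and had a log2 value of -0.11 in LM3 that did not pass the test, although without the filter it was called lower (limma adjusted p = 0.0183), with a difference of -0.37 (limma adjusted p = 6.06e-04). EPHA2, a receptor tyrosine kinase, rose by 0.89 in HepG2 and 0.48 in LM3. KITLG, the ligand of the receptor KIT, had log2 values of -0.84 (HepG2) and -0.86 (LM3), called in both lines. EDA2R, a receptor of the tumour necrosis factor family, rose by 0.54 in HepG2, whereas 4 of the 6 LM3 libraries had it at 0 and the others at 0.02.

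Apoptosis genes split by direction. PERP, a membrane protein of desmosomes and p53-dependent death (chromosome 6, 138088505 to 138107419), had HepG2 values of 98.9, 96.35 and 102.4 with siFASRL and 39.14, 33.86 and 38.08 with siNC. Its LM3 values were 94.3, 94.66 and 99.44 with siFASRL and 61.41, 50.66 and 52.62 with siNC. The siFASRL libraries of both lines reached much the same level, above all siNC libraries. PERP rose by 1.40 on the log2 scale in HepG2 (SE 0.067, limma adjusted p = 1.32e-07). In LM3 PERP rose by 0.80 (SE 0.075, limma adjusted p = 2.00e-05), a difference of -0.60 (limma adjusted p = 3.97e-04). PMAIP1 encodes NOXA, which neutralises MCL1 (chromosome 18, 59899996 to 59904305), and had HepG2 values of 25.58, 29.72 and 28.39 with siFASRL and 12.83, 11.96 and 12.25 with siNC. LM3 values of PMAIP1 were 13.26, 13.19 and 15.29 with siFASRL and 10.3, 9.08 and 10.16 with siNC. Neither line had overlapping groups. PMAIP1 rose by 1.11 in HepG2 (SE 0.067, limma adjusted p = 4.60e-07). The rise of PMAIP1 in LM3 was 0.46 (SE 0.073, limma adjusted p = 4.82e-04), a difference of -0.65 (limma adjusted p = 1.75e-04).

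BBC3 encodes PUMA, a killer protein of the BCL2 family (chromosome 19, 47220824 to 47232860), and had HepG2 values of 5.89, 6.46 and 6.39 with siFASRL and 5.34, 5.59 and 4.64 with siNC. Its LM3 values were 2.59, 2.4 and 1.87 with siFASRL and 2.65, 3.77 and 3.58 with siNC. The groups of BBC3 were close to each other in both lines, though they did not overlap. BBC3 rose in HepG2 with a log2 fold change of 0.23 (SE 0.071, limma adjusted p = 0.0119). BBC3 fell in LM3 with a log2 fold change of -0.40 (SE 0.116, limma adjusted p = 0.0128), a difference of -0.63 (limma adjusted p = 0.00375). The HepG2 call was lost with all 12 libraries in 1 fit (limma adjusted p = 0.0523), and the LM3 call without siFASRL replicate 3 (limma adjusted p = 0.0546). ZMAT3, an RNA-binding protein of p53-controlled splicing (chromosome 3, 179017223 to 179072513), had HepG2 values of 7.03, 6.79 and 7.28 with siFASRL and 18.73, 17.98 and 19.29 with siNC. Its LM3 values were 1.39, 1.42 and 1.43 with siFASRL and 3.32, 3.39 and 3.16 with siNC. ZMAT3 was lower in every siFASRL library of both lines. ZMAT3 fell by 1.29 on the log2 scale in HepG2 (SE 0.056, limma adjusted p = 8.17e-08). In LM3 it fell by 0.83 (SE 0.048, limma adjusted p = 1.68e-06), a difference of 0.46 (limma adjusted p = 8.20e-05) that shrank to 0.23 (limma adjusted p = 0.0185) with a pseudocount of 0.1.

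TP53INP1, a stress protein that acts with p53 (chromosome 8, 94925972 to 94949378), had HepG2 values of 2.13, 1.98 and 2.17 with siFASRL and 4.46, 4.29 and 3.99 with siNC. In LM3 it was listed at 0.06, 0.04 and 0.05 with siFASRL and 0.01, 0.03 and 0.04 with siNC, too low to be tested there. TP53INP1 was lower in all HepG2 siFASRL libraries, and in LM3 there was hardly any signal to fall. Its HepG2 log2 fold change was -0.76 (SE 0.059, limma adjusted p = 1.98e-06). The difference of 0.79 between the lines (limma adjusted p = 8.69e-07) rests on the HepG2 change alone. Of the 11 apoptosis genes, 3 fell and 8 rose in HepG2, and of the 10 tested in LM3, 3 fell and 4 rose. APAF1, which assembles the apoptosome, fell, with log2 values of -0.41 in HepG2 and -0.91 in LM3. The survival protein gene BCL2L1 rose by 0.94 and 0.62, and TRIAP1, another survival gene, by 0.39 and 0.23. AEN, PHLDA3 and TP53I3 rose in HepG2, by 0.54, 0.64 and 0.24 on the log2 scale, and passed neither the test in LM3 nor that of the difference (limma adjusted p = 0.052, 0.0561 and 0.173). The differences of AEN and PHLDA3 were called with the replicate block (0.0499 and 0.0351 by limma), and without HepG2 siFASRL replicate 1 (0.0295 and 0.0179), HepG2 siNC replicate 2 (0.0319 and 0.0269) or LM3 siNC replicate 1 (0.00219 and 0.00482). That of TP53I3 was called without HepG2 siNC replicate 2 or LM3 siNC replicate 1 (limma adjusted p = 0.0453 and 0.0324). In LM3 AEN was called higher without siNC replicate 3 and with median-of-ratios scaling (limma adjusted p = 0.0309 and 0.0137), and PHLDA3 with that scaling (0.0492). The HepG2 call of TP53I3, an oxidoreductase, was lost without HepG2 siFASRL replicate 2, siNC replicate 1 or siNC replicate 3 (limma adjusted p = 0.074, 0.0733 and 0.0732).

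Of the 4 DNA repair genes, all fell in LM3, with a median log2 fold change of -0.76, and 3 fell in HepG2, with a median of -0.41. Of all genes tested, 43.5% fell in LM3 and 44.3% in HepG2, and 4 genes are too few to set against those shares. DDB2, which recognises ultraviolet damage, went from a mean of 27.8 to 18.9 in HepG2 and from 42.4 to 22.8 in LM3. The log2 fold changes of XPC, its partner in damage recognition, were -0.45 in HepG2 and -0.68 in LM3. POLH, the polymerase that copies past ultraviolet lesions, had log2 fold changes of -0.37 and -0.85. RRM2B, the p53-induced ribonucleotide reductase subunit, fell in LM3 alone (log2 fold change -0.53) and had a HepG2 value of 0.05 that did not pass the test (limma adjusted p = 0.504). For RRM2B the lines differed by -0.59 (limma adjusted p = 2.02e-04).

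Metabolic and redox targets held the other gene with opposite changes. FDXR, ferredoxin reductase of mitochondria (chromosome 17, 74862497 to 74872994), had HepG2 values of 23.97, 26.08 and 26.8 with siFASRL and 19.46, 21.6 and 17.86 with siNC. The LM3 values of FDXR were 1.92, 1.85 and 1.95 with siFASRL and 4.1, 5.8 and 4.66 with siNC. FDXR was above all siNC libraries in HepG2 and below all of them in LM3. FDXR rose in HepG2 with a log2 fold change of 0.37 (SE 0.077, limma adjusted p = 0.00125). In LM3 FDXR fell, with a log2 fold change of -1.0 (SE 0.096, limma adjusted p = 2.27e-05) that lay just short of the threshold of 1. The lines differed by -1.37 (limma adjusted p = 2.79e-06). SESN1, sestrin 1, which restrains mTORC1 under stress (chromosome 6, 108984309 to 109094846), had HepG2 values of 5.02, 5.45 and 5.02 with siFASRL and 15.27, 14.57 and 13.77 with siNC. Its values in LM3 were 1.09, 1.1 and 1.08 with siFASRL and 2.84, 3.45 and 3.07 with siNC. SESN1 was lower in each siFASRL library, and its means fell to nearly equal shares of siNC in both lines, 0.355 in HepG2 and 0.349 in LM3. SESN1 fell in HepG2 with a log2 fold change of -1.33 (SE 0.061, limma adjusted p = 1.01e-07). The LM3 value of SESN1 was -0.98 (SE 0.062, limma adjusted p = 2.70e-06). The difference of 0.36 (limma adjusted p = 0.00381) was not seen with a pseudocount of 0.1, where it was 0.04 (limma adjusted p = 0.748).

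TSC2, the tuberin subunit that holds mTORC1 off (chromosome 16, 2047985 to 2089491), had HepG2 values of 11.09, 11.63 and 12.03 with siFASRL and 14.26, 16.02 and 14.04 with siNC. Its LM3 values were 14.94, 14.59 and 13.71 with siFASRL and 11.43, 13.25 and 14.69 with siNC. TSC2 was lower in all HepG2 siFASRL libraries, and the groups overlapped in LM3. TSC2 fell in HepG2 with a log2 fold change of -0.32 (SE 0.066, limma adjusted p = 0.00105). The LM3 value of TSC2 was 0.13 (SE 0.085, limma adjusted p = 0.183, but 0.0392 without siNC replicate 3 and 0.0252 with median-of-ratios scaling), a difference of 0.46 (limma adjusted p = 0.0046). In this role 3 of 6 members fell and 2 rose in HepG2, and 3 of the 5 tested in LM3 fell and 1 rose. DRAM1, a lysosomal membrane protein of autophagy, rose by 0.83 in HepG2 and 0.19 in LM3. PANK1, of coenzyme A synthesis, fell by 0.40 and by 0.52. SPATA18, which acts in mitochondrial quality control, had HepG2 means of 1.36 with siFASRL and 1.19 with siNC, whereas 5 of the 6 LM3 libraries had it at 0 and the remaining one at 0.03.

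The difference of the effects was tested in 1 fit of all 12 libraries. Of the 40 members, 21 (52.5%) had a lower effect in LM3 than in HepG2 at an adjusted p under 0.05, against 27.2% of the 8285 genes tested, and 5 (12.5%) had a higher one, against 19.5%. The median difference was -0.33 over members and -0.05 over all genes. The share of higher effects among all called differences moved from 41.7% to 52.7% with median-of-ratios scaling, and the member counts then were 19 and 5. TP53INP1, EDA2R and SPATA18, near 0 in LM3, entered this fit through HepG2 alone, so their difference is the HepG2 change with its sign turned. Over the 37 members tested in both lines, 20 (54.1%) had a lower effect in LM3, against 27.5% of genes tested in both, and 4 of 37 a higher one, against 1101 of 7349 genes. The lower side was led by BTG2, FDXR, CDKN1A and TNFRSF10D, and the higher side, TP53INP1 aside, by MDM4, ZMAT3, TSC2 and SESN1. With a pseudocount of 0.1 the SESN1 difference was 0.04 and not called (limma adjusted p = 0.748), and that of ZMAT3 was 0.23 (0.0185). For these 37 the mean effect was 0.13 in HepG2 and -0.24 in LM3, and 32 had the lower value in LM3. BTG2, FDXR and CDKN1A made up 35.6% of the summed difference, and without them, a choice made after their values were seen, the means over the remaining 34 were 0.11 and -0.15. Most of the gap between the lines was thus spread over many members. Among them were 8 of the 11 that rose in both lines, whose called difference was a smaller rise in LM3. Of these 8, PLK3 and BTG1 lost the difference with median-of-ratios scaling (limma adjusted p = 0.094 and 0.0896) and without most single libraries. No share of all genes is given here for the 32 of 37 or the 8 of 11.

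**Figure D3:**
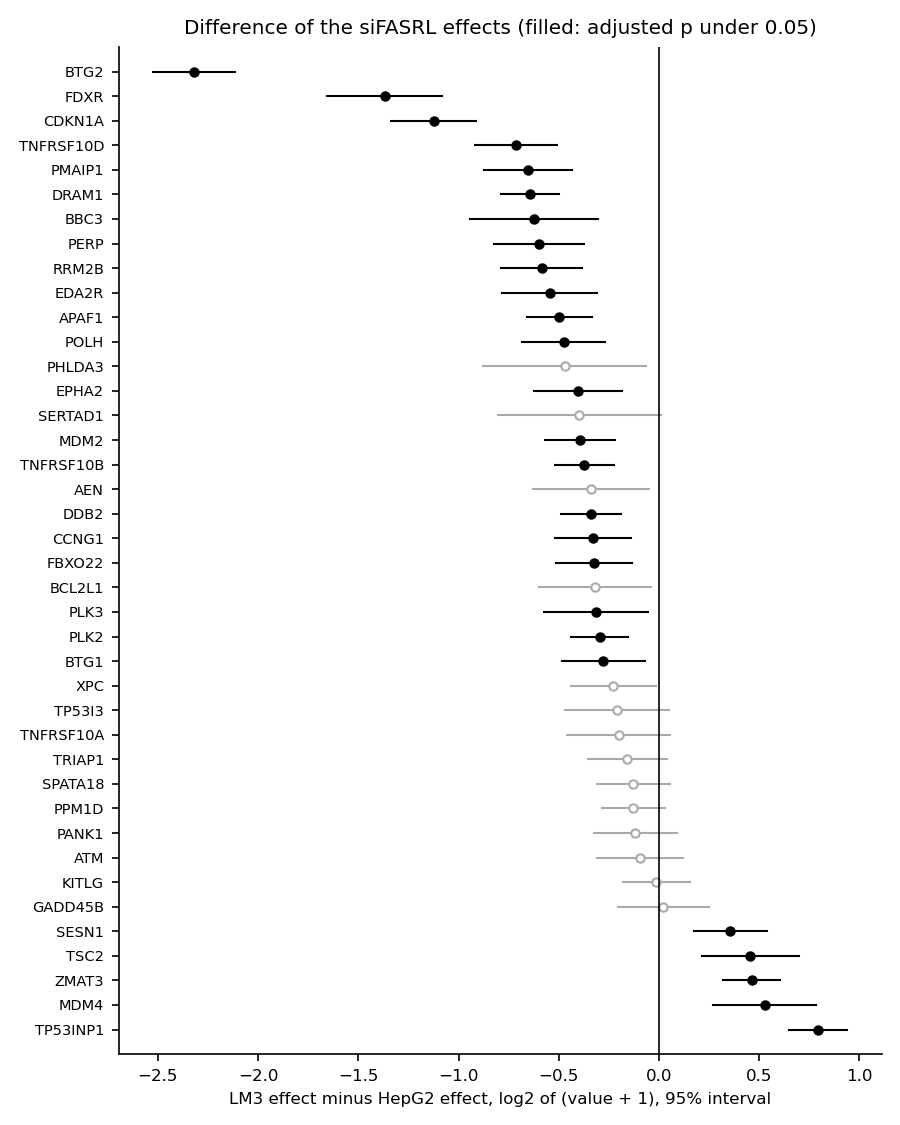
Effect of siFASRL in LM3 minus the effect in HepG2 for each of the 40 members, on the log2(value + 1) scale, with 95% intervals from the 12-library fit; filled points have an adjusted p under 0.05. BTG2 stands apart at -2.32, and 5 filled points lie above 0, from SESN1 at 0.36 to TP53INP1 at 0.79. With a pseudocount of 0.1 the SESN1 difference was not called.

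Levels with siNC were compared to see from where each line started. Of the 40 members, 10 (25.0%) were lower in LM3 by at least 1 on the log2 scale with an adjusted p under 0.05, against 15.5% of all genes, and 0 were higher by that much, against 7.65%, by limma and at an unadjusted p under 0.05 alike. By limma with no size threshold, 28 members (70.0%) were lower and 7 (17.5%) were higher, against 42.1% and 41.5% of all genes. The median difference was -0.48 over members and 0.00 over all genes. CDKN1A had a mean of 162 in HepG2 and 12.3 in LM3, a log2 difference of -3.62 (SE 0.07, limma adjusted p = 1.91e-14). TP53INP1, EDA2R and SPATA18 were near 0 in LM3, at means of 0.0267, 0.00667 and 0.01, and since they passed the filter through HepG2 alone, they could only come out lower in LM3. Over the 37 members tested in both lines, 25 (67.6%) were lower and 7 (18.9%) higher, against 37.0% and 45.1% of genes tested in both. By at least 1, 7 of the 37 (18.9%) were lower, against 9.06% of genes tested in both. ZMAT3, KITLG, SESN1, FDXR, TNFRSF10D and PLK2 were the others past the threshold, at log2 differences of -2.20, -2.01, -1.92, -1.82, -1.31 and -1.01. PLK2 was no longer past it, leaving 9 members, with median-of-ratios scaling, without HepG2 siNC replicate 3 and without LM3 siNC replicate 1. DDB2 and BTG2 were among those higher in LM3, by 0.59 and 0.58. Cell line and any other difference between the HepG2 and LM3 libraries cannot be told apart here.

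**Figure D4:**
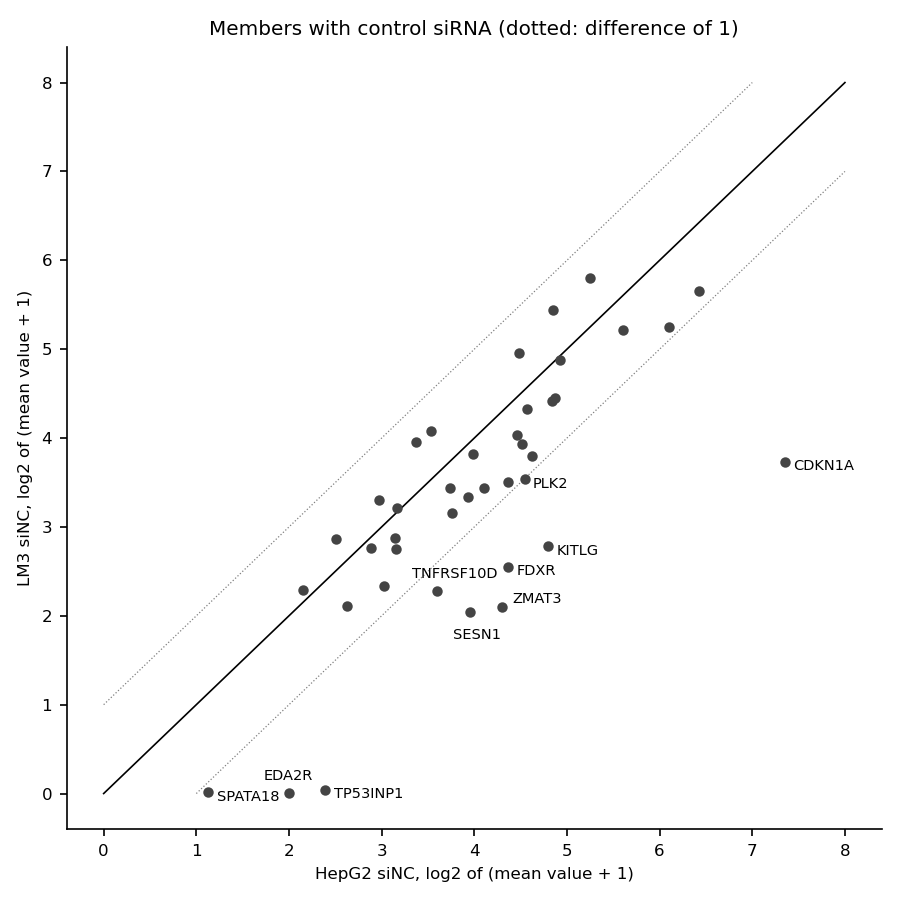
Mean siNC value of each member in HepG2 (x axis) and LM3 (y axis), both as log2(mean + 1); the solid line marks equal levels and dotted lines a difference of 1. The 10 named members lie below the lower dotted line, CDKN1A farthest, and no member lies above the upper one.

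Genes outside the members were taken from further lists, regulators of p53 among them. Of 21 genes of the regulator list tested in HepG2, 7 (33.3%) fell and 11 (52.4%) rose, against 44.3% and 44.8% of all genes. In LM3 6 of 21 (28.6%) fell and 12 (57.1%) rose, against 43.5% and 33.9% of all genes. The median log2 fold change of this list was 0.20 in HepG2 and 0.325 in LM3. In the fit of all 12 libraries, 2 of 21 (9.52%) had a lower effect in LM3 and 3 (14.3%) a higher one. The shares of all genes were 27.2% and 19.5%. PPP1R13B, which encodes the p53 cofactor ASPP1, fell by 0.56 in HepG2 and by 0.79 in LM3. The difference of -0.24 for PPP1R13B (limma adjusted p = 0.0377) was lost with a pseudocount of 0.1 (0.0606), with median-of-ratios scaling (0.117) and without most single libraries (up to 0.087). PML, of nuclear bodies that modify p53, fell by 0.49 and by 0.74. DAXX, a histone chaperone and MDM2 partner, rose by 0.54 and 0.51.

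Further direct p53 targets outside the members were counted in each line. Of 17 tested in HepG2, 6 (35.3%) fell and 8 (47.1%) rose, against 44.3% and 44.8% of all genes, with a median log2 fold change of 0.21. Of 14 tested in LM3, 11 (78.6%) fell and 2 (14.3%) rose, against 43.5% and 33.9% of all genes, with a median of -0.45. The genes tested differ between the lines, and the shares themselves were not compared by a test. In the fit of all 12 libraries, 11 of 17 (64.7%) had a lower effect in LM3 and 2 (11.8%) a higher one, against 27.2% and 19.5% of all genes, with a median of -0.39. That fit includes genes of this list, such as ACER2, that were too low to be tested in LM3. SESN2, sestrin 2, rose in HepG2 by 0.23 and fell in LM3 by 1.22, a difference of -1.45 (limma adjusted p = 8.01e-08). TP53I11 fell by 1.07 and by 1.83. LPIN1, the phosphatidate phosphatase lipin 1, fell by 0.86 and by 1.25. ACER2, a ceramidase, fell by 0.79 in HepG2, and its LM3 mean was 0.22 with siFASRL and 0.613 with siNC, too low to be tested. The list of cell cycle genes that p53 lowers through p21 and the DREAM complex moved in both directions. Of its 25 tested genes, 9 (36.0%) fell and 14 (56.0%) rose in HepG2, against 44.3% and 44.8% of all genes. In LM3 7 (28.0%) fell and 11 (44.0%) rose, against 43.5% and 33.9%. CDC25A, the phosphatase that activates cyclin-dependent kinases, rose by 0.60 in HepG2 and 0.83 in LM3. CENPA, the centromere histone, rose by 0.89 and 0.43. The S phase genes E2F2 and TYMS had log2 values of -0.83 and -0.60 in HepG2 and -0.56 and -0.38 in LM3, all falls.

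**Figure D5:**
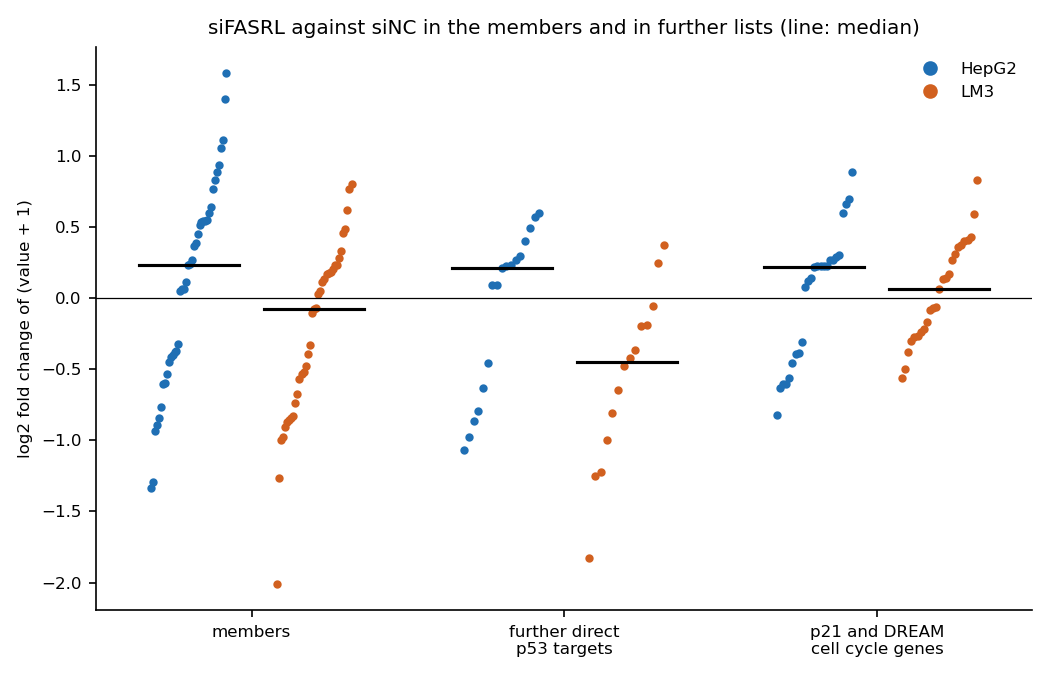
Log2 fold change of siFASRL against siNC for every tested gene among the 40 members and in the lists of further direct targets and cell cycle genes, in HepG2 (blue) and LM3 (orange); black lines are medians. The median of the further direct targets is 0.21 in HepG2 and -0.45 in LM3, and the cell cycle genes have medians above 0 in both lines.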

How the data were processed

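RNA-seq values of 12 libraries were used. Total RNA was extracted with Trizol, mRNA was purified with oligo(dT) beads and sequenced on the BGIseq500 platform. The authors filtered reads with SOAPnuke, aligned them with HISAT2 and Bowtie2 and computed expression with RSEM. The deposited normalized values have no stated unit (FPKM or TPM) and were treated as a score with 2 decimals. The submitters' processing notes name hg19, whereas the chromosome accessions belong to GRCh38. Positions are from RefSeq on GRCh38.p14, where 8790 of 8842 gene identifiers matched. One table repeats the 6 LM3 columns, all identical, which were not used again. Whether counting used strand is not given in the sources used here, so overlapping genes are uncertain. A count test was planned for counts, and limma was used because the values are not counts.

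limma (3.58.1, R 4.3.3) was fitted to log2(value + 1), on genes reaching 1 in 3 or more libraries, with Benjamini-Hochberg adjustment over all genes tested: on 6 libraries per line, and on all 12 for the difference between lines and for siNC levels. The steps were tested on simulated data. Tables and figures used Python (3.11.15), pandas (2.3.3) and matplotlib (3.10.9). A two-sided exact permutation test of 3 against 3 libraries cannot go below p = 0.1, which is the value wherever groups did not overlap. Depth is unknown, so no counting error is given, and precision comes from the 3 replicates. Members and lists were chosen with earlier results of these data known. Every listed member is named. Described in full were MDM2, MDM4 and CDKN1A, members that changed by 1 or more on the log2 scale in either line (adjusted p under 0.05), members called in opposite directions with a called difference, and the 4 members with the largest called difference in each direction. From each further list up to 4 genes with the lowest p were named. Alternatives were the pseudocount, the filter, the scaling, the replicate block, 1 fit of 12 libraries and leaving out each replicate.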

Additional observations from a re-analysis of the deposited data

Results flagged for a closer look

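The effect of siFASRL differed between the lines for 26 of 40 members (limma interaction, adjusted p under 0.05, 3 replicates per group), given here as the LM3 effect minus the HepG2 effect on the log2(value + 1) scale. Of these, 21 were lower in LM3, against 27.2% of all genes tested, and 5 higher, against 19.5%. Over the 37 members tested in both lines, 20 were lower and 4 higher. Among those with opposite calls in the lines, BTG2 differed by -2.32, FDXR by -1.37 and BBC3 by -0.63. Members that fell in both lines and more in LM3 were CDKN1A (-1.12), APAF1 (-0.50), POLH (-0.47), DDB2 (-0.34) and CCNG1 (-0.33). Members that rose in both lines and less in LM3 were PMAIP1 (-0.65), DRAM1 (-0.64), PERP (-0.60), EPHA2 (-0.40), FBXO22 (-0.32), PLK3 (-0.32), PLK2 (-0.29) and BTG1 (-0.28). The differences of PLK3 and BTG1 were lost with median-of-ratios scaling (limma adjusted p = 0.094 and 0.0896) and without most single libraries. A rise called in HepG2 and not in LM3 went with differences of -0.71 for TNFRSF10D, -0.37 for TNFRSF10B and -0.54 for EDA2R, the last near 0 and not tested in LM3. A fall called in LM3 alone went with differences of -0.59 for RRM2B and -0.39 for MDM2. Higher effects in LM3 were found for SESN1 (0.36), TSC2 (0.46), ZMAT3 (0.46), MDM4 (0.53) and TP53INP1 (0.79). TP53INP1 was near 0 in LM3 throughout, so that its difference is the HepG2 fall with its sign turned. With a pseudocount of 0.1 the SESN1 difference was 0.04 and was not called (limma adjusted p = 0.748). That of ZMAT3 shrank to 0.23 (limma adjusted p = 0.0185).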

How the results depend on the processing

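All 15 falls and 19 of 21 rises of members in HepG2 were called in every alternative that tested them, as were 16 of 17 falls and 9 of 11 rises in LM3. BBC3 and TP53I3 lost a rise in HepG2, BBC3 a fall and PLK3 and BTG1 a rise in LM3. Of the differences between the lines, 19 of 21 lower and 4 of 5 higher ones were called throughout, PLK3, BTG1 and SESN1 being lost. Gained in LM3 were rises of AEN, PHLDA3 and TSC2 with median-of-ratios scaling, of AEN and TSC2 also without siNC replicate 3, and a fall of TNFRSF10B without the filter. Lower line differences gained were XPC, AEN, PHLDA3 and BCL2L1 with the replicate block, and over left-out replicates these and TNFRSF10A, TP53I3 and SERTAD1.

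A pseudocount of 0.1 raised the members past the lower threshold in LM3 from 2 to 7, and it turned the line difference of ACER2 to -0.15. Leaving out each replicate gave 2 to 4 past that threshold, the 4 without LM3 siNC replicate 1, and 19 to 26 lower line differences. The HepG2 member median ranged from 0.178 to 0.282 over left-out replicates, and the LM3 median from -0.104 to -0.069. The LM3 median was -0.04 without a filter and -0.04 with all 12 libraries in 1 fit, and 0.028 with median-of-ratios scaling. That scaling also changed the sign of uncalled values, in LM3 to 0.028 for MDM4, 0.008 for TNFRSF10B and 0.037 for PPM1D, and for the line difference to 0.037 for KITLG and 0.039 for DAXX. Uncalled values changed sign over left-out replicates too: -0.057 to 0.088 for TP53I3 and -0.025 to 0.225 for SERTAD1 in LM3, -0.062 to 0.083 for GADD45B, -0.06 to 0.025 for KITLG and -0.078 to 0.052 for DAXX in the line difference, and -0.093 to 0.052 for TP53I3 between the siNC groups. The cause was not tested.

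With the replicate block, 15 falls and 21 rises in HepG2 and 17 and 11 in LM3 were called, and 25 lower and 5 higher line differences. Same-numbered libraries deviated together with r of 0.381, 0.439 and -0.252 in HepG2 and -0.082, 0.172 and -0.212 in LM3. The highest r to a library of another number was 0.342, -0.273 and 0.339 in HepG2 and 0.142, 0.078 and 0.218 in LM3. Whether the numbers pair the samples cannot be settled from these values. Unknown depth and 3 replicates limit what low genes can show.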
